A study of Mus musculus with 8 samples.

Results

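The genes described here are 9 enzymes of cholesterol synthesis, Hmgcs1, Mvd, Idi1, Fdps, Fdft1, Sqle, Lss, Cyp51 and Sc5d, in whole mouse colon. They were chosen by name as members of the mevalonate and sterol pathway, with earlier results of these data known. All probe sets annotated to them were taken, 13 of the 12422 probe sets on the array. Other enzymes of the pathway are described as a separate list below. Of the 13 probe sets, 11 passed the filter on low values, and each of the 9 genes had at least 1 that did. Each gene is read by its brightest probe set, and the further probe sets of Fdps and Sc5d are given beside it. RNA was hybridised to Affymetrix MG_U74Av2 arrays, 1 array for each of 8 pools of animals.

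The 8 pools fell into 4 groups of 2, numbered sample 1 and sample 2 in the labels. These were C3H/HeJBir-Il10tm1Cgn, C3H/HeJBir, C57BL/6J-Il10tm1Cgn and C57BL/6J. Il10tm1Cgn is a targeted allele of Il10, the gene of interleukin 10, a cytokine that restrains inflammation, and the lines that carry it are called Il10-null here. C3H/HeJBir is a substrain of C3H/HeJ, a strain known for its defective Tlr4 allele, which both C3H/HeJBir groups would share. Each pool joined 7 µg of RNA from each of 5 animals for C57BL/6J and for the sample 1 C3H/HeJBir Il10-null pool, and of 4 animals for the other C3H/HeJBir pools. An age, 4 weeks, is given for 1 pool only, C57BL/6J wild type sample 2. For the rest no age is stated, nor is the animals' sex, and a pool hides the spread between its animals. In whole colon, fewer cells of a type and less RNA per cell cannot be told apart.

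Cells build cholesterol from acetyl-CoA by way of mevalonate. Hmgcs1 makes HMG-CoA, Mvd and Idi1 turn mevalonate products into the isoprene units, and Fdps joins these into farnesyl pyrophosphate, from which sterols, prenyl groups and other isoprenoids branch. Fdft1 commits farnesyl pyrophosphate to squalene, Sqle oxidises squalene, Lss closes it into lanosterol, and Cyp51 and Sc5d act on the sterol ring after that. When sterols run low, sterol regulatory element-binding proteins (SREBPs) enter the nucleus and activate these genes, usually beside NF-Y and Sp1. In the intestine the pathway is known to be active in the epithelium, which renews itself continuously.

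Sequence upstream of the annotated start was available from RefSeq (GRCm38.p6) for 6 of the 9 genes: Hmgcs1, Mvd, Idi1, Lss, Cyp51 and Sc5d. The 250 bases before the start were searched on both strands for CACCCCAC, a core of the sterol regulatory element, for the looser form CACNCCAC, which includes it, for CCAAT, the NF-Y box, and for GGGCGG, the Sp1 box. Hmgcs1 alone among the 6 held CACCCCAC, 136 bases before the start. Over all 27025 genes with such a window 2.51% held it, and 5.16% held the looser form, which occurred in the 6 windows only at that same place. CCAAT was found in 6 of 6 windows, against 34.5% of all windows, and GGGCGG in 6 of 6, against 32.9% of all windows and 59.1% of those of genes tested on the array. A match is a string of letters and not a proven site, and these shares were not tested. The windows of Hmgcs1, Mvd, Idi1 and Lss are shown because their Il10-null and wild-type pools did not overlap in C3H/HeJBir, and that of Cyp51 because its pools did overlap there. Capitals mark the motifs on either strand.
Hmgcs1, chr13:119690101-119690350, plus strand: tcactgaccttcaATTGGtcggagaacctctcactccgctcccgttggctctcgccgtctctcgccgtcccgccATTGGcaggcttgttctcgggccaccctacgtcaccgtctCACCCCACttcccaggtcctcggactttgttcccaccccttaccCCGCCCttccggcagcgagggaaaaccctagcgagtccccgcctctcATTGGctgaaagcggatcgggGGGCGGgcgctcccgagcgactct
Mvd, chr8:122443423-122443672, minus strand: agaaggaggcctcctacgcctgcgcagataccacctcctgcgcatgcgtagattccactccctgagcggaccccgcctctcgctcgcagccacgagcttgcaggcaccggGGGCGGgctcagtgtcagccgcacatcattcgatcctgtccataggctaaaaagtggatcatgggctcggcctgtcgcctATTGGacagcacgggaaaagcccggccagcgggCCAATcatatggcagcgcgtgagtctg
Idi1, chr13:8885356-8885605, plus strand: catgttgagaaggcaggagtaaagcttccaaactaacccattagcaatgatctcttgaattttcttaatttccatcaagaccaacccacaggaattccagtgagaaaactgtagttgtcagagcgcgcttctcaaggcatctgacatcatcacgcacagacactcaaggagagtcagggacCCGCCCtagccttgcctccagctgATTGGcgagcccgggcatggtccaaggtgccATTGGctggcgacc
Lss, chr10:76531355-76531604, plus strand: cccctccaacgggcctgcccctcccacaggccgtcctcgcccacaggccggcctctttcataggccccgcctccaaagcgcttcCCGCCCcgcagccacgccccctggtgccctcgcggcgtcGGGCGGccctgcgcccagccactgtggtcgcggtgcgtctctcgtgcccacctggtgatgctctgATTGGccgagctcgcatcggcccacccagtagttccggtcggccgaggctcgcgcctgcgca
Cyp51, chr5:4104698-4104947, minus strand: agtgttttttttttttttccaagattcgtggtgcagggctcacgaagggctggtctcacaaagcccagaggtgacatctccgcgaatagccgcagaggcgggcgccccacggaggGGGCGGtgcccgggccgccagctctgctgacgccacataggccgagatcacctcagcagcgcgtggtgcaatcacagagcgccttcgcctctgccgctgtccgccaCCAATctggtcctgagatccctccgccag

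Colon epithelium was well represented. The 9 epithelial markers, among them Krt8, Krt19 and Vil1, summed to 24108.7 to 32361.1 intensity units over the 8 pools, and the liver marker Alb read 11.8 to 48.1. Il10 itself was read by a probe set that failed the filter, at 22.03 to 51.7 in the 4 Il10-null pools and 5.43 to 10.9 in the 4 wild-type pools. Since no source says whether these probes lie inside the altered stretch, this reading checks no label. One array, that of sample 1 of C3H/HeJBir Il10-null, was least like the others, with a mean Spearman coefficient across probe sets of 0.915 against the other 7 arrays, where the others had 0.931 to 0.945. The 4 sample 2 pools were hybridised on 1 day, while the sample 1 Il10-null and sample 1 wild-type pools were hybridised on 2 different days, so that the genotypes can be compared within a day only among sample 2 pools. Xist, transcribed from the inactive X chromosome of females, read 243 to 452 in pools numbered 1 and 2.84 to 12.9 in pools numbered 2. The sample numbers therefore differed in Xist as well as in hybridisation day, and the parts of sex and day cannot be told apart.

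The comparison of C3H/HeJBir Il10-null with C3H/HeJBir wild-type pools addressed the effect of the null allele in this strain. Of the 9 genes, 7 had higher intensities in both Il10-null pools than in either wild-type pool, where 11.3% of all 7453 tested probe sets did. The 7 were Hmgcs1, Mvd, Idi1, Fdps, Fdft1, Sqle and Lss, with log2 differences of 0.55 to 1.08, or 1.46-fold to 2.11-fold. No gene passed the test across all tested probe sets: limma called 0 of the 9 and 0.0134% of all probe sets (adjusted p = 0.999 for each of the 9). At an unadjusted p under 0.05, limma had 7 of the 9 genes and 2.83% of all probe sets. The median log2 difference was 0.78 over the 9 genes and -0.01 over all tested probe sets. It was positive for 8 of the 9 genes, against 48.5% of all, and positive in both sample numbers for 7, against 24.6% of all. No gene was lower in both Il10-null pools, where 12% of tested probe sets were. Since the genes were chosen with earlier results of these data known, these counts describe them and are no test of the pathway.

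**Figure D1:**
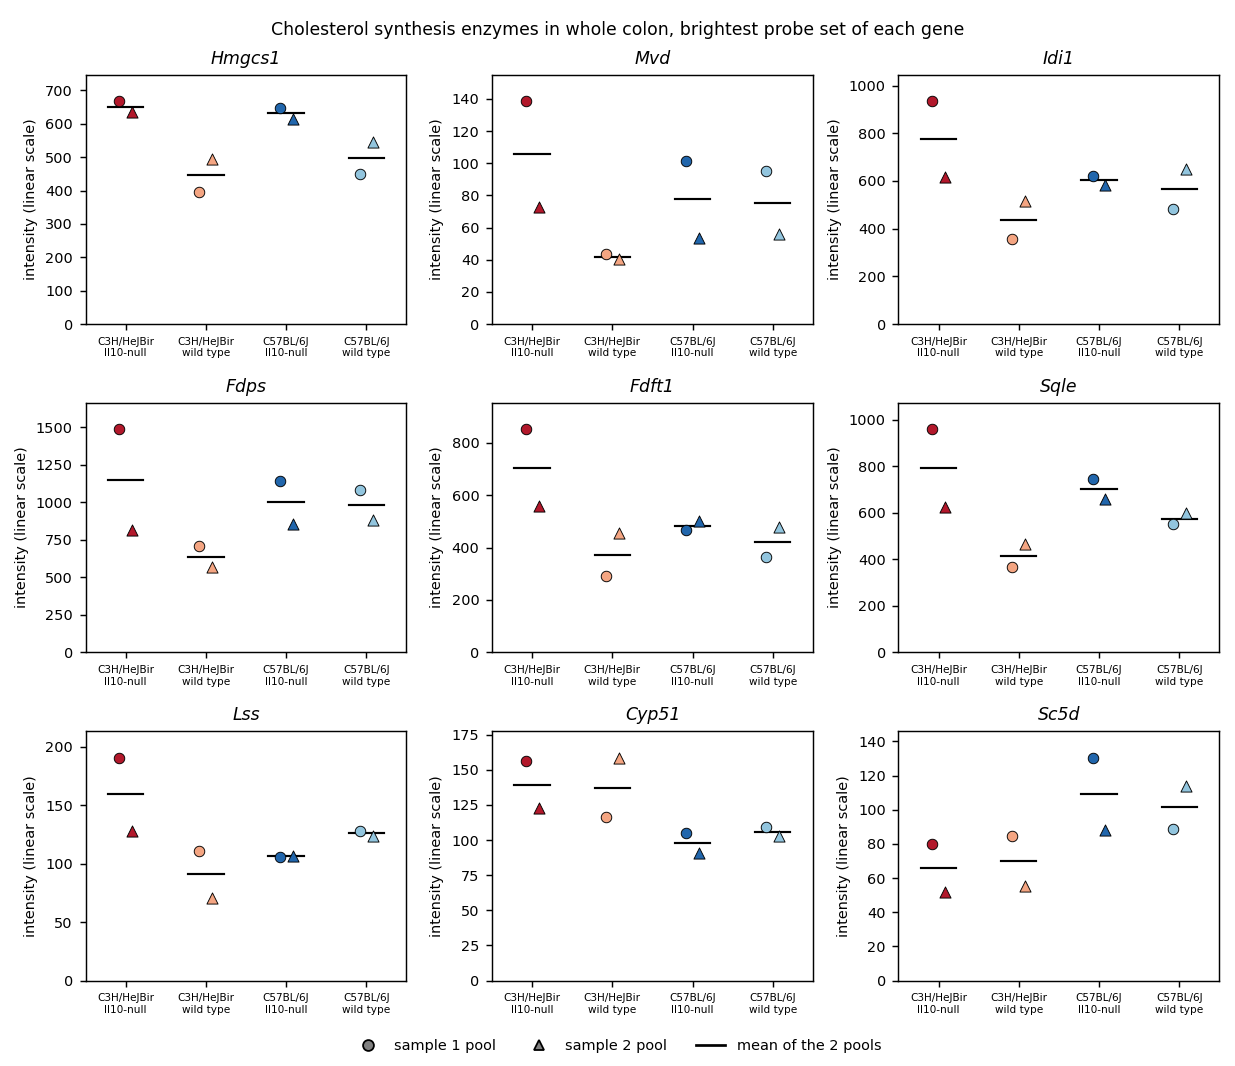
Intensity (linear scale, each axis starting at 0) of the brightest probe set of each enzyme in the 8 pools, grouped by strain and genotype. Circles are sample 1 pools, triangles sample 2 pools and bars the mean of the 2 pools. In 7 of the 9 panels both C3H/HeJBir Il10-null pools lie above both C3H/HeJBir wild-type pools, and the panels of Cyp51 and Sc5d are the exceptions.

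In the arm that leads to farnesyl pyrophosphate, Hmgcs1 (probe set 94325_at) read 667 and 635 in the Il10-null pools of C3H/HeJBir, sample 1 and then sample 2, against 395 and 496 in the wild-type pools of the same numbers. The pools did not overlap, and the difference was 0.55 ± 0.23 (log2 ± SE of the limma fit). Mvd, which decarboxylates a mevalonate diphosphate (160770_at), read 139 and 72.7 in the Il10-null pools, against 43.4 and 40.4 in wild type. Its log2 difference of 1.08 ± 0.39 was the highest of the 9, with the sample 1 Il10-null pool far above the other 3. Idi1, the isomerase (96269_at), read 934 and 618 in the Il10-null pools, against 356 and 518 in wild type, a log2 difference of 0.81 ± 0.30. Fdps, the synthase at the branch point (99098_at), read 1484 and 813 in the Il10-null pools, against 707 and 568 in wild type, a log2 difference of 0.78 ± 0.33. A second probe set of Fdps, 160424_f_at, gave 785 and 445 in Il10-null, against 374 and 363 in wild type, and a log2 difference of 0.67 ± 0.34. The suffix f marks probes that may match related sequences. The other probe sets of Fdps, 162281_at and 162217_r_at, read between 0.59 and 33.6 in the 8 pools and failed the filter.

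In the squalene arm, Fdft1, squalene synthase (97518_at), read 851 and 557 in Il10-null colon of C3H/HeJBir, against 291 and 455 in wild type. The log2 difference was 0.90 ± 0.31, and the groups were kept apart by the sample 2 Il10-null pool at 557 and the sample 2 wild-type pool at 455. Sqle, squalene epoxidase (94322_at), read 958 and 626 in the Il10-null pools, against 366 and 466 in wild type, a log2 difference of 0.89 ± 0.27. Its unadjusted limma p of 0.0109 was the smallest of the 9 enzymes (adjusted p = 0.999) and stood at rank 32 among all tested probe sets. Lss, lanosterol synthase (160737_at), read 191 and 128 in the Il10-null pools, against 111 and 71.1 in wild type. Its log2 difference was 0.74 ± 0.28, and it was the one gene of the 7 whose difference was about as large between the sample 2 pools (0.76) as between the sample 1 pools (0.72).

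Both enzymes that act after lanosterol showed no such separation. Cyp51, the sterol demethylase (94916_at), read 156 and 123 in Il10-null colon of C3H/HeJBir, against 116 and 159 in wild type, and the groups overlapped fully (log2 0.03 ± 0.25, 95% interval -0.54 to 0.60). Sc5d, the sterol desaturase (102769_f_at), read 80.2 and 51.8 in the Il10-null pools, against 84.9 and 55.2 in wild type, a log2 difference of -0.07 ± 0.32 with a 95% interval of -0.80 to 0.65. Its other probe set, 102768_i_at, had the opposite sign, at 58.7 and 56.1 in Il10-null, against 43.7 and 54.6 in wild type (log2 0.19 ± 0.22), and there the pools did not overlap. These intervals reach to about the size seen for Hmgcs1, so that a difference of that size was not shown to be lacking.

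Sample 1 of C3H/HeJBir Il10-null was the highest of all 8 pools for 7 of the 9 genes, as it was for 19.3% of all tested probe sets. Between the sample 1 pools the median log2 difference of the 9 genes was 1.06, and between the sample 2 pools, hybridised on 1 day, it was 0.35, with the medians of all tested probe sets at -0.04 and 0.02. The sample numbers also differed in Xist, and the part of the animals' sex in this gap was not tested. In the sample 2 pools alone the 7 genes had differences of 0.25 (Idi1) to 0.76 (Lss), and Cyp51 and Sc5d had -0.34 and -0.08. When sample 1 of this group was left out, the median log2 difference of the 9 genes was 0.51, and that of all tested probe sets -0.01. With sample 1 of the wild type left out instead, these medians were 0.59 and 0.04. With the hybridisation day as a block they were 0.52 and 0.01, and 1 of the 9 genes had an unadjusted limma p under 0.05. The share of all tested probe sets that did so under that block was not counted.

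Marker lists of other cell types moved in that same pool. There the 8 smooth muscle markers, all 8 measured and tested, summed to 9693 intensity units, and the other C3H/HeJBir Il10-null pool had 17316, against 14966 and 12677 in C3H/HeJBir wild type. The 7 fibroblast markers, also all tested, summed to 3464 and 6499 in the Il10-null pools, against 5387 and 5519 in wild type. The 5 tested of 10 exocrine pancreas markers summed to 4077 and 1236, against 2366 and 2229 in wild type, and the 12 tested of 15 proliferation genes to 2820 and 2049, against 2357 and 2145. The 3 tested of 6 neutrophil markers summed to 697 and 238 in the Il10-null pools, against 286 and 224 in wild type. Among them S100a8, a calcium-binding protein abundant in neutrophils and named here after its values were seen, read 581 in sample 1 of C3H/HeJBir Il10-null and 9.53 to 35.0 in the other 7 pools. The other tested neutrophil markers did not follow it. Csf3r was lowest in that pool, at 59.7 against 140 to 320 in the other 7, and Lcn2 read 56.4 there, against 30.3 to 68.3. Of the neutrophil markers that failed the filter, S100a9 read 173 in that pool, against 1.83 to 9.74 in the other 7. Mpo and Cxcr2, which also failed it, read 8.21 and 19.2 there, against 12.5 to 29.1 and 16.7 to 33.4. The 4 tested of 8 leukocyte markers summed to 899 and 561 in Il10-null, against 743 and 740.0 in wild type. The 5 tested of 6 goblet cell markers summed to 20670 and 24903, against 26480 and 24511 in wild type, the 4 tested of 7 absorptive colonocyte markers to 17778 and 19347, against 18315 and 18357, and the 4 tested of 7 adipocyte markers to 395 and 271, against 522 and 266. The 9 epithelial markers summed to 32361 and 24814 in the Il10-null pools, against 24510 and 24109 in wild type. Bright markers weigh most in such a sum. The median log2 deviation of these 9 from their own means was 0.10 and -0.13 in Il10-null, against -0.09 and -0.13 in wild type. Krt8 read 10383 in sample 1 of Il10-null, against 7797 and 7153 in wild type, but Epcam read 966, against 1186 and 1164. The lowest deposited value of any probe set was 0.03, so a reading above 0 does not show that a marker was present. The part of cell composition in the differences of the enzymes was not tested.

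In C57BL/6J colon, the same comparison of Il10-null with wild-type pools gave a median log2 difference of 0.08 over the 9 enzymes, against -0.01 over all tested probe sets. The Il10-null pools lay above both wild-type pools for 2 of the 9 genes, Hmgcs1 and Sqle, where 12.6% of tested probe sets did, and below both for 1, Lss, where 13.6% did. Limma called 0 of the 9 genes and 0% of the 7453 probe sets (adjusted p = 1.00 for each of the 9). At an unadjusted p under 0.05 it had 0 of the 9 and 1.58% of all. The difference was positive for 7 of the 9 genes, against 48.9% of all. With the hybridisation day as a block it was positive for 1 of the 9, and the median was -0.17, against 0.01 over all tested probe sets. The share of all probe sets that were positive under that block was not counted. The median of the 9 genes also changed sign, to -0.18, without sample 1 of Il10-null. It was 0.24 without sample 2 of wild type, 0.22 without sample 2 of Il10-null and 0.02 without sample 1 of wild type.

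Hmgcs1 read 647 and 616 in Il10-null colon of C57BL/6J, against 451 and 546 in C57BL/6J wild type, a log2 difference of 0.34 ± 0.23. Sqle read 746 and 661 in Il10-null, against 551 and 598 in wild type (log2 0.29 ± 0.27). For both genes the 2 Il10-null pools lay above the 2 wild-type pools, and the difference was smaller between the sample 2 pools, at 0.17 and 0.14. The sample 1 pools of this strain differed in genes tied to sex. Xist read 255 in Il10-null, against 452 in wild type, and Eif2s3y, a Y chromosome gene, 113 against 39.7. The part of the animals' sex in the C57BL/6J differences was not tested. Lss read 106 and 107 in Il10-null, against 128 and 124 in wild type, a log2 difference of -0.22 ± 0.28 in which the 2 pools of a group nearly coincided. For Mvd the pools followed the sample number and not the genotype, with 102 and 53.4 in Il10-null, against 95.03 and 56.1 in wild type (log2 0.01 ± 0.39). Fdps did so too, with 1144 and 854 in Il10-null, against 1083 and 884 in wild type (log2 0.01 ± 0.33). Its second tested probe set gave 568 and 357 in Il10-null, against 496 and 393 in wild type (log2 0.03 ± 0.34).

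Idi1 read 622 and 583 in Il10-null colon of C57BL/6J, against 485 and 652 in wild type, and its sign differed between the sample numbers (0.35 and -0.16). Fdft1 read 468 and 501 in Il10-null, against 363 and 477 in wild type, with overlap and a log2 difference of 0.21 ± 0.31. Cyp51 read 105 and 90.9, against 109 and 103 in wild type, and Sc5d 130.5 and 87.9, against 88.9 and 114 in wild type, with log2 differences of -0.10 ± 0.25 and 0.08 ± 0.32. By the brightest probe sets the genotypes therefore overlapped in this strain, apart from Hmgcs1, Sqle and Lss. The second probe set of Sc5d, 102768_i_at, did not overlap. It read 75.4 and 65.2 in Il10-null, against 59.4 and 58.8 in wild type (log2 0.21 ± 0.22). The 95% intervals of all 9 genes included 0, and their upper ends ran from 0.43 (Lss) to 0.93 (Fdft1).

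**Figure D2:**
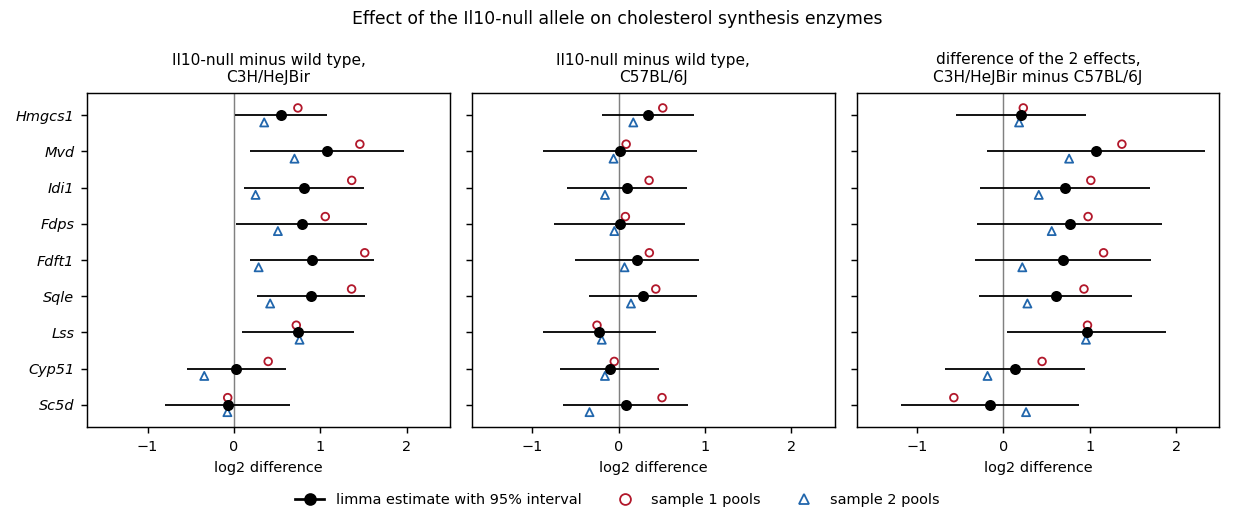
Log2 difference between Il10-null and wild-type pools for each enzyme in C3H/HeJBir, in C57BL/6J, and the difference of these effects, C3H/HeJBir minus C57BL/6J. Filled points with lines are limma estimates with 95% intervals, open circles the sample 1 pools alone and open triangles the sample 2 pools alone. In C3H/HeJBir the intervals of 7 genes lie above 0, in C57BL/6J all intervals include 0, and for the difference only that of Lss does not.

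Whether the strain altered the response of these genes was addressed by subtracting the Il10 effect in C57BL/6J from that in C3H/HeJBir. The result had a median log2 of 0.69 over the 9 enzymes and -0.01 over all tested probe sets, and it was positive in 8 of the 9 genes, against 49.2% of all. Limma called 0 of the 9 genes and 0% of the probe sets (adjusted p = 1.00 for each of the 9), with 1 of the 9 and 1.5% of all at an unadjusted p under 0.05. The 1 gene was Lss, at 0.96 ± 0.40, which came out at 0.97 from the sample 1 and 0.96 from the sample 2 pools. Mvd had the highest value, 1.07 ± 0.55, with 1.37 from sample 1 and 0.76 from sample 2. Fdps, Idi1, Fdft1 and Sqle had differences of 0.60 to 0.77, positive in both sample numbers, with 95% intervals that included 0. Hmgcs1, at 0.21 ± 0.33, and Cyp51, at 0.13 ± 0.35, differed less, and Sc5d stood at -0.16 ± 0.45 with opposite signs in the sample numbers. The second tested probe sets of Fdps and Sc5d gave 0.64 ± 0.48 and -0.02 ± 0.31. A difference between the strains in the response was thus not established for any of the 9 genes. Of the 9 genes, 7 had positive values in both sample numbers, as did 23.1% of all tested probe sets. Without sample 1 of C3H/HeJBir Il10-null the median was 0.34, and without sample 1 of C3H/HeJBir wild type it was 0.44.

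The strain comparisons placed the low values. In wild-type colon, C3H/HeJBir had lower intensities than C57BL/6J for 8 of the 9 enzymes in both sample numbers, as had 29.5% of all tested probe sets. The C3H/HeJBir wild-type pools lay below both C57BL/6J wild-type pools for 5 genes, Mvd, Fdps, Sqle, Lss and Sc5d, where 17% of tested probe sets did, and above both for Cyp51, where 14% did. The median log2 difference was -0.45 over the 9 genes and -0.02 over all tested probe sets, and it was positive for 1 gene, against 47.2% of all. Without sample 1 of C3H/HeJBir wild type it was -0.30. Limma called 0 of the 9 genes and 0.403% of the probe sets (adjusted p = 1.00 for each of the 9), with 0 of the 9 and 5.68% of all at an unadjusted p under 0.05. Mvd read 43.4 and 40.4 in C3H/HeJBir, against 95.03 and 56.1 in C57BL/6J (log2 -0.67 ± 0.39). Fdps read 707 and 568, against 1083 and 884 in C57BL/6J (log2 -0.62 ± 0.33), and Sqle 366 and 466, against 551 and 598 in C57BL/6J (log2 -0.46 ± 0.27). For the brightest probe sets of these 3 genes both C3H/HeJBir wild-type pools were below all 6 other pools, as was the case for 2.94% of tested probe sets. The second tested probe set of Fdps, 160424_f_at, did not show this. It read 374 and 363 in C3H/HeJBir wild type, but 357 in sample 2 of C57BL/6J Il10-null. Its strain difference in wild type was smaller, at -0.25 ± 0.34. Lss read 111 and 71.1 in C3H/HeJBir, against 128 and 124 in C57BL/6J (log2 -0.45 ± 0.28), and Sc5d 84.9 and 55.2, against 88.9 and 114 in C57BL/6J (log2 -0.49 ± 0.32). The second probe set of Sc5d gave -0.23 ± 0.22. Cyp51 ran the other way, with 116 and 159 in C3H/HeJBir, against 109 and 103 in C57BL/6J (log2 0.33 ± 0.25).

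In Il10-null colon, 8 of the 9 enzymes had a positive log2 difference, C3H/HeJBir minus C57BL/6J, against 47% of tested probe sets, and the median was 0.33 over the 9 genes and -0.02 over all. The pools did not overlap for 4 genes. Fdft1, Lss and Cyp51 were higher in both C3H/HeJBir pools, where 11.9% of tested probe sets were, with log2 differences of 0.50 ± 0.31, 0.51 ± 0.28 and 0.46 ± 0.25. Sc5d was lower in both, where 15.3% were, at -0.64 ± 0.32, and its second probe set gave -0.25 ± 0.22. Fdft1 read 851 and 557 in C3H/HeJBir Il10-null, against 468 and 501 in C57BL/6J Il10-null, and Cyp51 156 and 123, against 105 and 90.9. For Cyp51 and Sc5d the sign was the same as in wild type, while for the other 7 genes it was turned. Limma called 0 of the 9 genes and 0.295% of the probe sets (adjusted p = 1.00 for each of the 9), with 0 of the 9 and 5.17% of all at an unadjusted p under 0.05. Without sample 1 of the C3H/HeJBir group the median log2 difference was 0.0088, without sample 2 of it 0.62, and without sample 2 of the C57BL/6J group 0.055. Each of these strain comparisons shares its pools with an Il10 comparison above, and they are not independent of each other. Eif2s3y, a gene of the Y chromosome, read higher in C3H/HeJBir than in C57BL/6J in pools of both numbers. Among pools numbered 1, Eif2s3y read 242 in C3H/HeJBir Il10-null, against 113 in C57BL/6J Il10-null. In the wild-type pools numbered 1 it read 318 in C3H/HeJBir, against 39.7 in C57BL/6J. Among pools numbered 2, where Xist read 2.84 to 12.9, Eif2s3y read 391 in C3H/HeJBir Il10-null, against 263 in C57BL/6J Il10-null. In the wild-type pools numbered 2 it read 411 in C3H/HeJBir, against 256 in C57BL/6J. The part of the animals' sex in the strain differences was not tested.

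**Figure D3:**
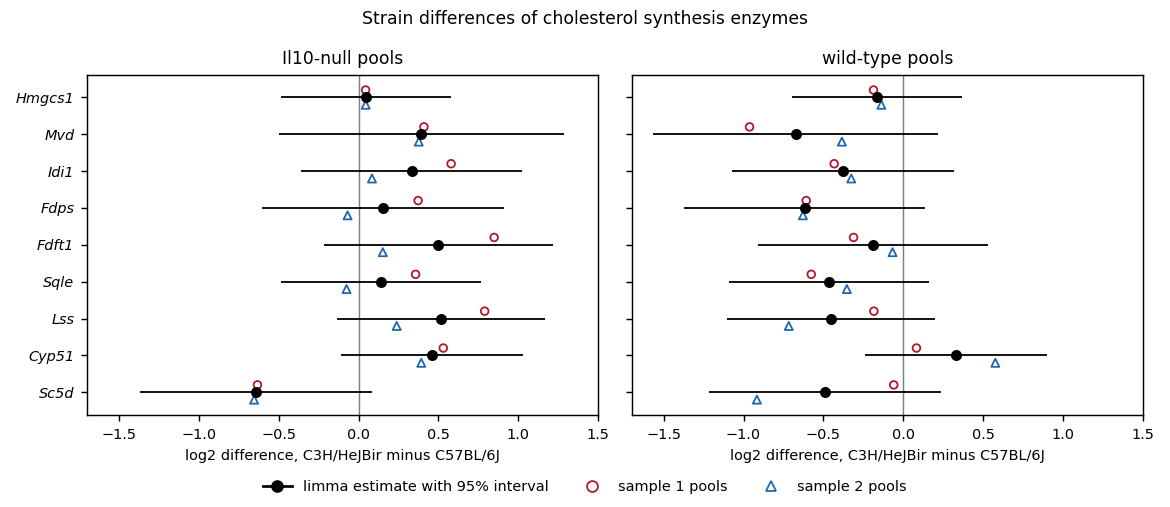
Log2 difference, C3H/HeJBir minus C57BL/6J, for each enzyme in Il10-null and in wild-type pools. Filled points with lines are limma estimates with 95% intervals, open circles sample 1 pools alone and open triangles sample 2 pools alone. Estimates lie above 0 for 8 genes in Il10-null and below 0 for 8 genes in wild type, and all intervals include 0.

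Over all 8 pools the enzymes up to Lss had higher correlations with the others than the later ones had. When 1 pool was dropped, the gap to Sc5d narrowed, most for Fdft1 and Lss, while that to Cyp51 widened. As a description over 8 pools that share 4 groups, the correlation of each gene with the mean of the other 8 was 0.95 for Sqle, 0.88 for Idi1, 0.88 for Fdps, 0.85 for Mvd, 0.77 for Fdft1, 0.72 for Hmgcs1 and 0.70 for Lss, and 0.05 for Cyp51 and 0.13 for Sc5d (Pearson, log2 scale). Over the 7 pools left when sample 1 of C3H/HeJBir Il10-null was dropped, a setting chosen after seeing the data, Sqle had 0.92, and Hmgcs1, Mvd, Idi1 and Fdps had 0.71 to 0.76. Fdft1 and Lss had 0.48 and 0.35, Sc5d had 0.29, close to Lss, and Cyp51 had -0.63. The mean log2 deviation of the 9 genes from their own means was 0.56 and 0.01 in Il10-null colon of C3H/HeJBir, against -0.39 and -0.31 in C3H/HeJBir wild type. In C57BL/6J it was 0.19 and -0.05 in the Il10-null pools, against -0.03 and 0.02 in wild type. The C3H/HeJBir pools therefore spanned both ends of the range, and the 4 C57BL/6J pools lay between them.

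**Figure D4:**
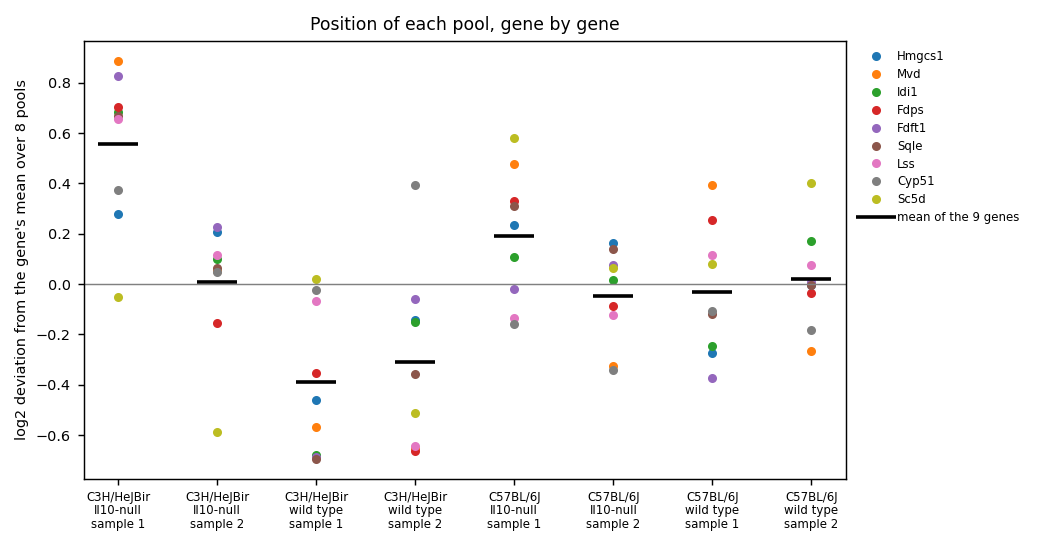
Log2 deviation of each enzyme from its own mean over the 8 pools, with pools in columns by strain, genotype and sample number. Coloured points are genes and black bars the mean of the 9 genes, which is highest in sample 1 of C3H/HeJBir Il10-null (0.56) and lowest in the C3H/HeJBir wild-type pools (-0.39 and -0.31).

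Among 6717 other tested probe sets with 1 gene symbol, the 8 whose values followed that mean most closely had correlations of 0.93 to 0.95 over the 8 pools. They belonged to Bcl2l10, a member of the Bcl2 family, Gzmb, a protease of cytotoxic lymphocytes, Anxa1, a phospholipid-binding protein, Atf3, a stress-induced transcription factor, and to Specc1, Tpra1, Bcl7b and Chek1, a checkpoint kinase. Gzmb read 76.6 and 36.1 in Il10-null colon of C3H/HeJBir, against 26.1 and 21.0 in C3H/HeJBir wild type. All 8 were highest in sample 1 of C3H/HeJBir Il10-null, and over the other 7 pools their correlations were 0.81 to 0.93. None of the 8 is an enzyme of the pathway. Of the pathway's own genes, Dhcr7 stood nearest the top of that order, at place 244 (correlation 0.71), followed by Nsdhl at 321 (0.68) and Msmo1 at 347 (0.66). Over the same 7 pools Dhcr7 had 0.84 and Msmo1 0.62, while Nsdhl changed sign, to -0.21.

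The other enzymes of the pathway formed a second list of 13, of which 9 were measured and tested: Mvk, Ggps1, Tm7sf2, Lbr, Msmo1, Nsdhl, Hsd17b7, Ebp and Dhcr7. In C3H/HeJBir their median log2 difference between Il10-null and wild type was 0.07, with 5 of 9 positive, and in C57BL/6J it was 0.05, again with 5 of 9 positive. Limma called 0 of the 9 in either strain, with 0 at an unadjusted p under 0.05 as well. Dhcr7, the last reductase of one branch, read 146 and 145 in Il10-null colon of C3H/HeJBir, against 80.8 and 121 in wild type, without overlap (log2 0.51 ± 0.27). Msmo1, a sterol methyl oxidase, read 445 and 293, against 221 and 286 in wild type (log2 0.50 ± 0.37), also without overlap, and between the sample 2 pools its difference was 0.03. Lbr, a nuclear envelope protein with sterol reductase activity, read 199 and 216 in Il10-null, against 277 and 258 in wild type, and was lower without overlap (log2 -0.35 ± 0.22). Nsdhl and Hsd17b7 both had 0.28 in C3H/HeJBir, and Mvk, Ggps1, Tm7sf2 and Ebp had log2 differences of -0.33 to 0.07.

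**Figure D5:**
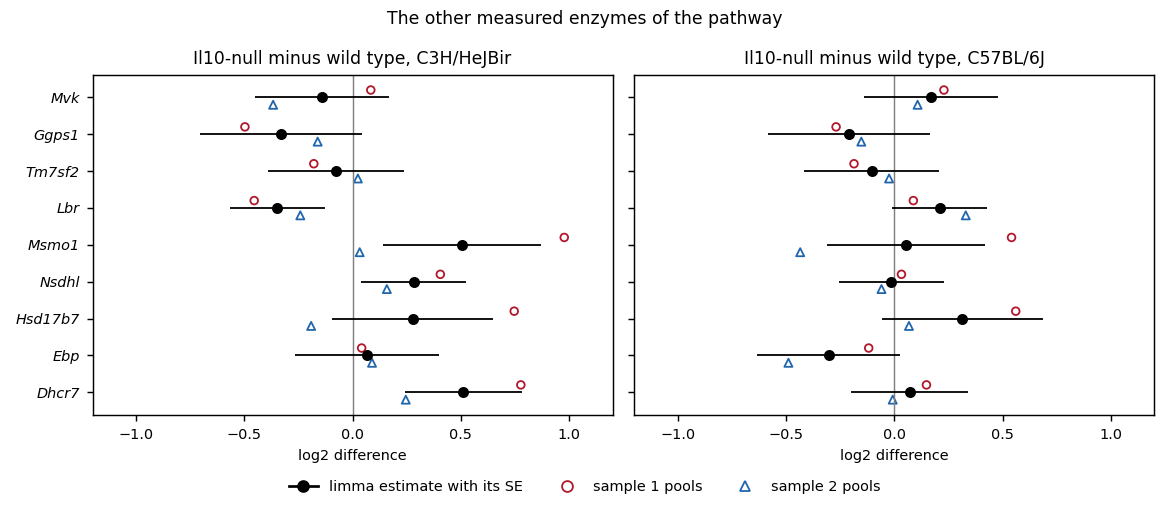
Log2 difference between Il10-null and wild-type pools for the 9 other tested enzymes of the pathway, in C3H/HeJBir and in C57BL/6J. Filled points with lines are limma estimates with their SE, open circles sample 1 pools alone and open triangles sample 2 pools alone. The estimates run from -0.35 to 0.51 in C3H/HeJBir, with 5 of 9 above 0.

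Among genes around the pathway limma made no call either. Of 13 regulators and uptake genes, 4 were tested and limma called 0 in each of the 5 comparisons, with 0 at an unadjusted p under 0.05. Srebf1, which encodes an SREBP, read 224 and 179 in C3H/HeJBir Il10-null, against 167 and 210 in wild type (log2 0.09 ± 0.24), and its log2 difference in C57BL/6J was 0.34 ± 0.24. Scarb1, a receptor for high-density lipoprotein, read 80.7 and 105 in C3H/HeJBir Il10-null, against 123 and 120.4 in wild type (log2 -0.37 ± 0.22). Of 12 genes of cholesterol export and esterification 6 were tested, with a median log2 of -0.08 in C3H/HeJBir and 0.01 in C57BL/6J, 0 called by limma and 0 at an unadjusted p under 0.05. Of 7 genes of the prenylation branch, Fnta and Ggps1 were tested, and Fnta, a subunit of farnesyl transferase, had a log2 difference of -0.05 ± 0.22 in C3H/HeJBir. Of 13 genes of fatty acid synthesis, the other lipid pathway under SREBPs, 9 were tested and limma called 0, with 1 at an unadjusted p under 0.05 in C3H/HeJBir (Me1) and medians of 0.09 in C3H/HeJBir and 0.24 in C57BL/6J. Scd2, a fatty acid desaturase, read 1553 and 934 in C3H/HeJBir Il10-null, against 654 and 651 in wild type (log2 0.87 ± 0.43). Me1, malic enzyme, read 107 and 124 in C3H/HeJBir Il10-null, against 197 and 215 in wild type, and was lower without overlap (log2 -0.78 ± 0.27).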

How the data were processed

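The authors deposited 1 intensity value per probe set and array on a linear scale, from 0.03 to 12860, and arrays were already on 1 level: trimmed means (2%) had a highest-to-lowest ratio of 1.01. No source used here names the summary algorithm or the scaling target. Array medians lay between 50.1 and 62.2, and precision is limited by having 8 arrays. The deposited experiment files were read only for the hybridisation day, of which there were 3.

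A pseudocount of 11.07 (20th percentile of the values) was added before log2, so folds of dim genes are understated. The test took the 7453 probe sets whose mean reached the 40th percentile of means (37.0). Symbols came from the platform annotation, with 10833 probe sets under 1 symbol, 396 under several and 1193 under none, and 10817 matched the RefSeq table of GRCm38.p6. The 4 group means were fitted with limma 3.58.1 in R 4.3.3 (4 residual degrees of freedom), with two-sided tests, Benjamini-Hochberg adjustment over the 7453 and a cutoff of 0.05. The fit was tested on simulated data. Spread between pools, which average animals, is what the p-values rest on.

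A further gene of the rule is not reported here. The enzymes and gene lists were chosen with earlier results of these data known. All 9 enzymes are named, from other lists up to 3 with the largest absolute log2 difference in C3H/HeJBir, and 8 genes by correlation; Gzmb's values were picked for display after they were seen. Pools of the same sample number deviated together (correlations of 0.198 to 0.332 over 6 pairs of groups), so 1 alternative takes the number as a block. Other alternatives were pseudocounts of 2.76 and 56.7, no filter, a filter at the 60th percentile, quantile and median scaling, trend and robust moderation, the day as a block, and each pool left out.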

Additional observations from a re-analysis of the deposited data

Results flagged for a closer look

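Opposite strain differences in the genotypes drew attention to 5 enzymes. Hmgcs1, Mvd, Idi1, Fdft1 and Lss were higher in C3H/HeJBir than in C57BL/6J in the Il10-null pools of both sample numbers, and lower in the wild-type pools of both. For Hmgcs1 the strain difference in Il10-null was only 0.04 ± 0.23. The share of all tested probe sets with such a turn of sign was not counted. The difference of the strain effects, Il10-null minus wild type, which equals the difference of the Il10 effects, was 0.21 ± 0.33 for Hmgcs1, 1.07 ± 0.55 for Mvd, 0.71 ± 0.43 for Idi1, 0.69 ± 0.44 for Fdft1 and 0.96 ± 0.40 for Lss (log2 ± SE). As an interaction in limma, 0 of the 5 passed (adjusted p = 1.00 each).

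Lss also had Il10 differences of opposite sign in the strains. It was higher in Il10-null than in wild type in both C3H/HeJBir sample numbers (0.72 and 0.76) and lower in both of C57BL/6J (-0.25 and -0.20), with the same difference of 0.96 and a 95% interval of 0.04 to 1.88. The interaction had an unadjusted p of 0.0419 in limma, rank 79 of 7453, and did not pass. With 2 pools in a group, no single pool could be tested as an outlier.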

How the results depend on the processing

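Under every alternative that was run limma called 0 of the 9 enzymes in each of the 5 comparisons. Over all 800 values of single enzymes the smallest adjusted p was 0.218, for Sqle in C3H/HeJBir without the sample 2 Il10-null pool. The replicate block, on the sample number, left the median log2 difference in C3H/HeJBir at 0.78 and the called enzymes at 0, and the counts of enzymes at an unadjusted p under 0.05 went to 3 for the difference of the Il10 effects, 1 for the strain effect in Il10-null and 2 in wild type. With the day as a block that count in C3H/HeJBir was 1 in place of 7, and the C57BL/6J median was -0.17. Sample 1 pools still enter that fit through the difference between the strains, so it is no estimate from 1 day alone. For neither block was the share of all tested probe sets at an unadjusted p under 0.05 counted. A shift common to all probe sets was thus not told apart from one of the enzymes. The C3H/HeJBir median ran from 0.51 without its sample 1 Il10-null pool to 1.10 without its sample 2 Il10-null pool. The median of the difference of the Il10 effects ran from 0.34 to 0.99 with a pool left out, the C57BL/6J median from -0.18 to 0.24, the strain effect in Il10-null from 0.0088 to 0.62 and in wild type from -0.46 to -0.30. The wild-type median, -0.45, was -0.32 at the higher pseudocount, -0.38 with the stricter filter (2 of the 9 genes then untested), -0.42 after quantile normalization and -0.41 after median scaling.

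The count of all called probe sets moved. In the C3H/HeJBir Il10 comparison, 1 call became 0 at the lower pseudocount, without a filter, after median scaling and with the day block, and 0 to 7 with a pool left out. In C57BL/6J, 0 became 1 at the higher pseudocount, with the stricter filter and with trend and robust moderation. For the strain effect in Il10-null, 22 became 45 at the higher pseudocount and with trend and robust moderation, 14 without a filter, 6 with the day block and 4 to 34 with a pool left out. In wild type 30 became 53 at the higher pseudocount, 51 with trend and robust moderation and 2 to 39 with a pool left out. The causes were not tested.

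Signs of enzymes turned where differences were small. The day block gave log2 -0.19 for Cyp51 in C3H/HeJBir, and in C57BL/6J -0.21 for Mvd, -0.31 for Idi1, -0.16 for Fdps, -0.17 for Fdft1, -0.022 for Sqle and -0.13 for Sc5d. With a pool left out, the C3H/HeJBir Il10 effect ran from -0.18 to 0.23 for Cyp51 and -0.34 to 0.20 for Sc5d, and that in C57BL/6J from -0.39 to 0.42 for Mvd, -0.11 to 0.31 for Idi1, -0.19 to 0.22 for Fdps and -0.18 to 0.34 for Sc5d. The difference of these effects ran from -0.077 to 0.34 for Cyp51 and -0.42 to 0.11 for Sc5d. The strain effect in Il10-null ran from -0.026 to 0.81 for Mvd, -0.28 to 0.58 for Fdps and -0.16 to 0.44 for Sqle, and in wild type from -0.50 to 0.12 for Fdft1. A group left with 1 pool was assumed to vary like the others.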
